A study of Homo sapiens with 18 samples.

Results

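Expression of 9 genes of the epithelial tight junction was followed in LNCaP and C4-2 prostate cancer cells. The genes were 6 claudins (CLDN1, CLDN3, CLDN4, CLDN7, CLDN8 and CLDN12), occludin (OCLN), junctional adhesion molecule A (F11R) and the plaque protein zonula occludens 1 (TJP1). They were picked by symbol from the 60675 genes listed in the files, with the level of CLDN12 under dual knockdown in C4-2 already known. That comparison is therefore given for all 9 genes as values without a test.

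RNA Seq counts came from 18 libraries, 3 in each of 6 groups. LNCaP is an androgen-dependent line, and C4-2 is its androgen-independent derivative. In each line, 1 group had scrambled siRNA (siScr) and vehicle, another had siScr and the synthetic androgen R1881 (1 nm, 72 h), and the third had siRNA pools against both KDM1A and KDM7A (dual knockdown) with R1881 (1 nm, 72 h). All groups were grown in hormone-depleted (charcoal-stripped) medium and all were transfected with siRNA, so no group shows untransfected cells. KDM1A and KDM7A remove methyl groups from histones, and every knockdown library analysed here targeted both. The labels of the C4-2 vehicle libraries disagree, with C4-2 in the title and LNCaP as cell line. These 3 libraries were placed by title, and correlated with the other C4-2 libraries at r = 0.935 to 0.972 across genes and with LNCaP libraries at r = 0.871 to 0.915. Nothing in the labels says whether the 3 libraries of a group came from separate cultures. Each p-value sets a difference against the spread between libraries of its fit, which need not be the spread between cultures.

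The libraries held between 3182604 and 20154243 counts (median 18117641). C4-2 siScr vehicle replicate 3 held the fewest, and the next lowest total was 10485096. Levels are given as normalised counts (CPM) by edgeR's effective library size, with the SD of 3 libraries. KDM1A was 108 ± 4.45 CPM with siScr and R1881 in LNCaP against 51.5 ± 2.86 CPM under dual knockdown, and 142 ± 3.22 against 16.4 ± 3.02 CPM in C4-2. KDM7A was 59.7 ± 5.02 against 30.8 ± 2.93 CPM in LNCaP and 120 ± 10.0 against 21.2 ± 2.88 CPM in C4-2. The luminal prostate markers KLK3, FOLH1, KRT8 and KRT18 were detected in every library, at a sum of 1191 to 8751 CPM. The basal markers KRT5 and TP63 had means of 0.03 and 0.01 CPM, and the 3 basal markers together stayed at or below 1.60 CPM in every library.

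Tight junctions seal the space between neighbouring epithelial cells near their apical side. Claudins form the paracellular strands and set which ions and solutes pass, occludin and F11R are further membrane proteins of the strands and of cell contacts, and TJP1 ties these proteins to actin inside the cell. Glandular epithelium, that of the prostate included, is known for CLDN3, CLDN4, CLDN7 and occludin, and most claudins are made in some epithelia and not in others.

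In GRCh38, CLDN3 (ENSG00000165215) lies on chromosome 7 from 73768997 to 73770270 on the minus strand. CLDN4 (ENSG00000189143) lies on the same chromosome from 73799542 to 73832693 on the plus strand, 29271 bp further on. CLDN12 (ENSG00000157224) is also on chromosome 7, from 90383721 to 90513402. CLDN1 is on chromosome 3, CLDN7 on 17, CLDN8 on 21, OCLN on 5, TJP1 on 15 and F11R on 1. The transcripts differ in base composition. CLDN3 was the richest in G and C (mean GC content of its transcripts 69.2%), followed by CLDN7 (59.1%) and CLDN4 (56.1%). CLDN8 was the poorest at 37.2%, with OCLN, CLDN12, TJP1 and CLDN1 between 41.9% and 42.9%. Reads were counted without strand, and exon bases shared with another gene can lose their reads. CLDN12 shared 347 exon bases (5.15% of its own) with GTPBP10 and 201 with CDK14, both on the same strand. CLDN7 shared 269 (10.8% of its own) with AC003688.1, a protein-coding gene on its strand that held 0 counts, and 38 with ELP5. F11R shared 36.6% of its exon bases with another protein-coding gene (AL591806.3) that held 203 counts in all. OCLN has a pseudogene copy, OCLNP1, that held 894 counts in all against 19286 for OCLN, so reads common to both cannot be placed.

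Promoter windows of 300 bases, 250 before and 50 after the start of a RefSeq transcript in GRCh38.p14, were held for 7 of the 9 genes (not CLDN8 and F11R), 12 windows in all. A window is shown for CLDN12, CLDN3, CLDN4 and CLDN7, which rose under dual knockdown in LNCaP, and for OCLN, which fell there. CLDN7 and OCLN have 2 windows each, and the 1 with the lower chromosome start is shown. Capitals mark CACCTG or its reverse complement CAGGTG, the E-box letters bound by SNAI and ZEB repressors, since SNAI2 itself rose under R1881 in these libraries. Each is written 5′ to 3′ on the strand of the gene.
CLDN12, chr7:90403211-90403510, plus strand: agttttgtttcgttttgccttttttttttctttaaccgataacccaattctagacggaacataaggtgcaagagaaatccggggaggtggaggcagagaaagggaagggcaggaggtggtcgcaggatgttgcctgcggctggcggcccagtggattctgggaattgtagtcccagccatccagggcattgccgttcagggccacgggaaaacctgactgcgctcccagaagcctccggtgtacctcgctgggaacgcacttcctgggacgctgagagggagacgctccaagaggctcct
CLDN3, chr7:73770221-73770520, minus strand: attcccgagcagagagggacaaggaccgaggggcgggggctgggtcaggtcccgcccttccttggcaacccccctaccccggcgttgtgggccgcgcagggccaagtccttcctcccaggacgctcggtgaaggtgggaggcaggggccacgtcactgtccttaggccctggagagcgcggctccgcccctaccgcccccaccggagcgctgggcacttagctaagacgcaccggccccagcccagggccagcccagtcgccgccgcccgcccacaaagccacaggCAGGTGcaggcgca
CLDN4, chr7:73830746-73831045, plus strand: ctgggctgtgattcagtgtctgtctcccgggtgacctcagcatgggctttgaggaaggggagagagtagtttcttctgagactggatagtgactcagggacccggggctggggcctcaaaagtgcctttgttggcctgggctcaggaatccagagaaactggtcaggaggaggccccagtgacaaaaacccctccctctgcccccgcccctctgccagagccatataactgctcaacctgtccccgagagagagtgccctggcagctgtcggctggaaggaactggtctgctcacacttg
CLDN7, chr17:7262429-7262728, minus strand: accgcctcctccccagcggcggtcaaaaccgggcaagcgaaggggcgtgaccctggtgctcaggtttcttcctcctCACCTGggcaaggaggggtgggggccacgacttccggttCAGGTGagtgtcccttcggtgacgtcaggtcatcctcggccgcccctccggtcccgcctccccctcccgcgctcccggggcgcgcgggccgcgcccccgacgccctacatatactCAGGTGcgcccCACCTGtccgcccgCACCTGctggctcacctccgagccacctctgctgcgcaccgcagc
OCLN, chr5:69492297-69492596, plus strand: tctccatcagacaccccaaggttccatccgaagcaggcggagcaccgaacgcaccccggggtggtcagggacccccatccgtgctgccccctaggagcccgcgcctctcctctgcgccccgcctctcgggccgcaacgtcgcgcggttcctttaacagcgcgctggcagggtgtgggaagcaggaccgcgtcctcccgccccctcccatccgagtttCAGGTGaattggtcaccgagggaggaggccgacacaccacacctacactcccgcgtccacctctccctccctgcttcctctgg
The letters CACCTG, on either strand, were found in 5 of the 12 windows, and these belong to 4 genes (CLDN3, CLDN7, OCLN and TJP1). In all, 20.6% of 35116 promoters of the same length hold them. The CLDN7 window shown holds them 5 times, at positions 77, 116, 231, 242 and 256 counted from 1 at its 5′ end. The other CLDN7 window (chr17:7263164-7263463) holds none, as do the CLDN12 and CLDN4 windows. No window held the full androgen response element (AGAACA, 3 bases of any kind, TGTTCT, found in 0.00285% of all promoters) or the GRHL letters AACCGGTT (0.134%), and 1 TJP1 window held AGAACA (14.8% of all promoters). The CLDN3 window had 24 CG pairs and the CLDN7 windows 30 (shown) and 10 (not shown), against a median of 14 over all promoters, while the CLDN4 window had 5 and the CLDN12 window 15. A match says only that the letters are there.

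Between genes, levels were compared per kb of exon length. That length covers all annotated exons of a gene, which can exceed the transcript made in these cells, so ranks and shares depend on it. By CPM without the length, TJP1 was the highest of the 9 genes in every group. CLDN7, a claudin that lies along the side membranes of epithelial cells as well as in junctions, had the highest level of the 9 genes in all 6 groups, from 66.3 ± 4.37 CPM per kb in LNCaP with vehicle to 141 ± 21.9 in C4-2 under dual knockdown. TJP1 and CLDN4 each ranked between 2 and 4 in every group. CLDN1, a barrier claudin of skin and other stratified epithelia, was the lowest in every group, at or below 0.153 CPM per kb. CLDN12 stood at rank 4 in LNCaP and between ranks 5 and 7 in C4-2, and CLDN3 at rank 7 or 8 in LNCaP and 3 or 4 in C4-2.

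**Figure D1:**
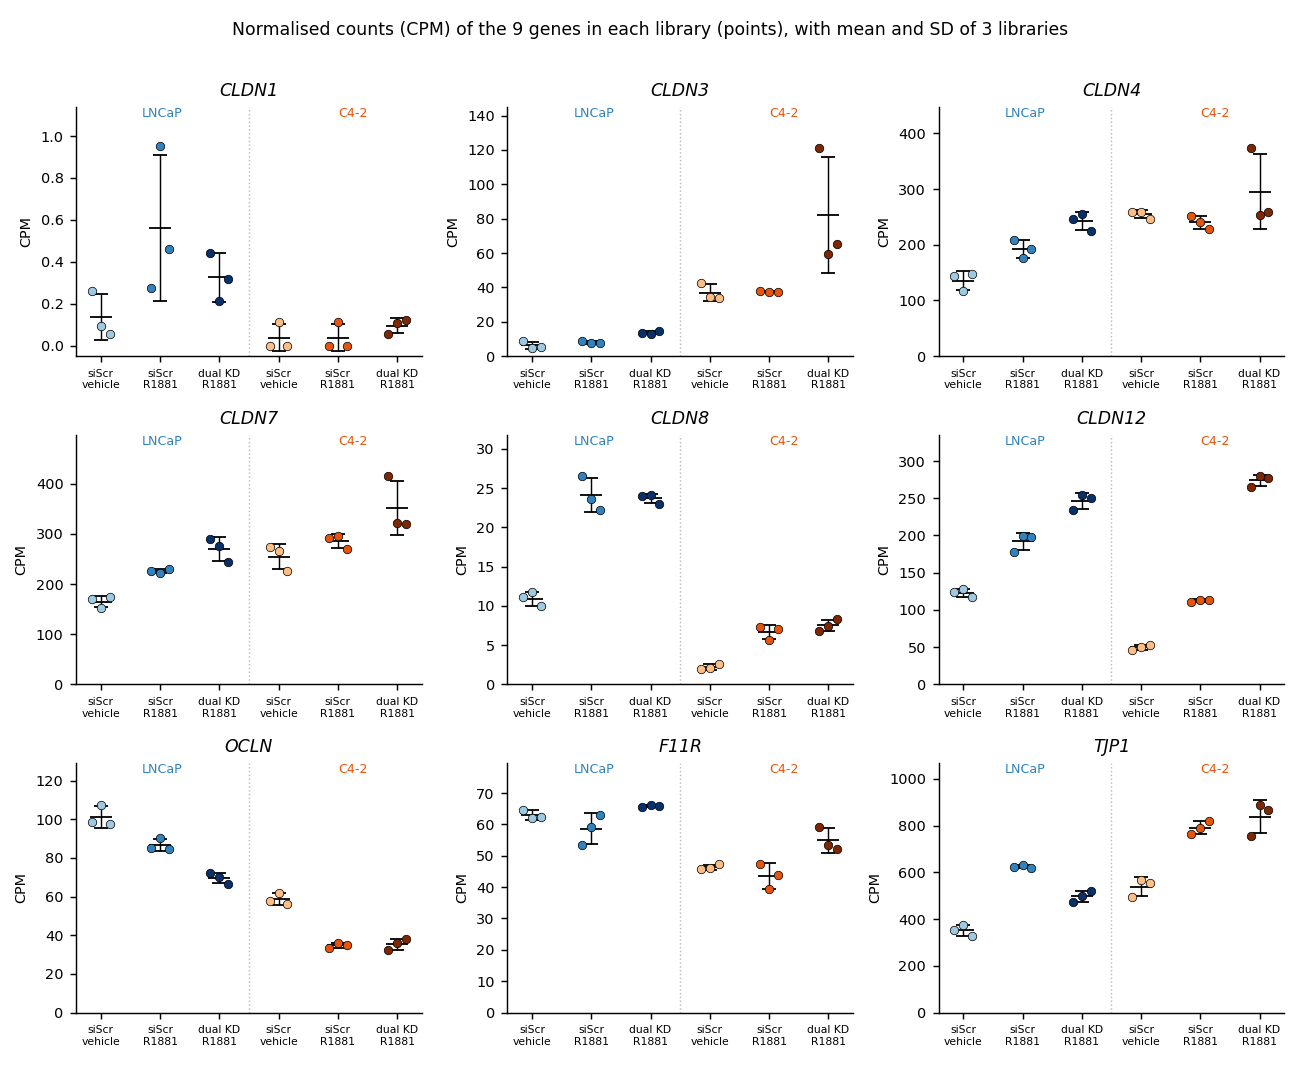
CPM of each of the 9 genes (vertical axes start at 0 except for CLDN1, whose lower error bars pass below 0) in the 6 groups, LNCaP in blue and C4-2 in orange. Points are libraries in the order of replicates 1 to 3, and bars are the mean and SD. CLDN12 steps up from vehicle to R1881 to dual knockdown in both lines with no overlap between libraries. Its step to dual knockdown in C4-2 is the comparison by which it was chosen. Libraries of 40.5% of all genes tested did not overlap in that comparison. Dual knockdown replicate 1 of C4-2 lies above its fellows for CLDN3, CLDN4 and CLDN7.

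The claudins added up differently in the lines. Summed over 24 claudin genes, the level in LNCaP was 131 ± 8.06 CPM per kb with vehicle, 185 ± 4.28 with R1881 and 227 ± 10.5 under dual knockdown (SD, n = 3). In C4-2 the sums were 204 ± 14.0, 225 ± 8.10 and 323 ± 62.5 CPM per kb. The 6 claudins studied here made up at least 93.9% of the sum in each library. CLDN7 gave 43.9% to 51.1% of it and CLDN4 19.3% to 26.6%, depending on the group. CLDN3 held 3.38% to 4.73% in LNCaP and 13.1% to 19.4% in C4-2. The share of CLDN12 in C4-2 was 3.64% with vehicle, 7.42% with R1881 and 12.9% under dual knockdown, against 14.0%, 15.4% and 16.2% in LNCaP. Of 18 further claudin genes, 3 had no count, 16 (those 3 included) had a mean under 1 CPM, and only CLDN15 and CLDN23 were above. In the bulk libraries, fewer cells making a transcript and less of it per cell cannot be told apart.

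**Figure D2:**
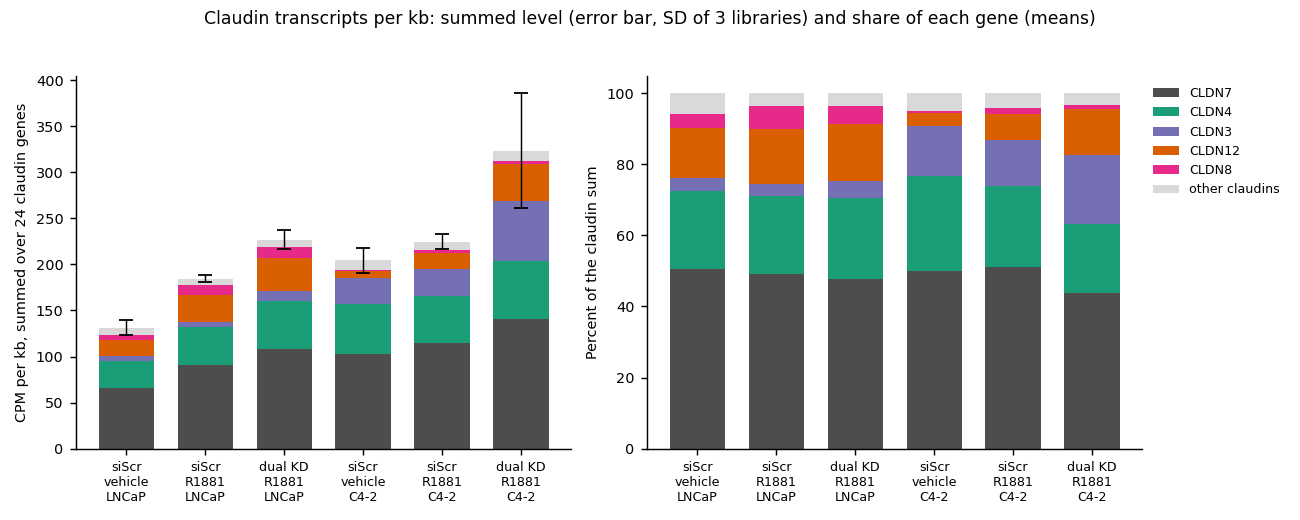
Left, CPM per kb summed over 24 claudin genes in each group (mean, error bar SD of 3 libraries), split by gene; right, the share of each gene in that sum in percent. CLDN7 and CLDN4 fill most of every bar, CLDN3 is wider in C4-2, and the CLDN12 share in C4-2 goes from 3.64% to 12.9%.

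CLDN12 is a claudin without the C-terminal motif that binds TJP1, known from gut epithelium and brain endothelium. In LNCaP, its 3 libraries held 124, 128 and 117 CPM with vehicle, 178, 200 and 198 CPM with R1881, and 234, 255 and 250 CPM under dual knockdown. In C4-2 they held 46.4, 50.7 and 52.5 CPM with vehicle, 110, 113 and 113 CPM with R1881, and 265, 279 and 278 CPM under dual knockdown. Ordered by mean, the groups ran from C4-2 vehicle through C4-2 R1881, LNCaP vehicle, LNCaP R1881 and LNCaP dual knockdown to C4-2 dual knockdown, and no library of a group overlapped those of its neighbours in this order. The place of C4-2 dual knockdown in it rests on the comparison by which the gene was chosen.

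R1881 raised CLDN12 in both lines, by 0.62 on the log2 scale in LNCaP (SE 0.06, adjusted p = 2.99e-07 in edgeR) and 1.18 (SE 0.08, adjusted p = 3.32e-08) in C4-2. The response was 0.54 larger in C4-2 (SE 0.09, adjusted p = 2.88e-04 for the interaction of line and R1881 in edgeR). Dual knockdown raised it further in LNCaP, by 0.38 (SE 0.06, adjusted p = 0.00204 in edgeR). In C4-2, the comparison by which the gene was chosen, the log2FC was 1.28 (SE 0.07), and it was 0.93 above that of LNCaP. The R1881 and dual knockdown comparisons of a line share its siScr R1881 libraries, and so does the comparison of the lines with R1881. CLDN12 was lower in C4-2 than in LNCaP by 1.32 on the log2 scale with vehicle (SE 0.07, adjusted p = 5.78e-13 in edgeR) and by 0.77 with R1881 (SE 0.06, adjusted p = 9.57e-10), in 3 of 3 libraries each time. These tested comparisons of CLDN12 kept their direction and passed under every alternative. Of the neighbours that share exon bases with it, GTPBP10 had a log2FC under R1881 of 0.00 in LNCaP and 0.31 in C4-2 (adjusted p = 0.987 and 0.0201 in edgeR), passing in the same direction as CLDN12 in C4-2. Under dual knockdown it had −0.20 and −0.34 (adjusted p = 0.0674 and 0.0156 in edgeR). CDK14 had −0.53 and −0.08 under R1881 (adjusted p = 3.86e-06 and 0.512 in edgeR) and −0.11 and 0.12 under dual knockdown (0.292 and 0.315).

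CLDN8, a claudin of kidney tubules and gut that limits the passage of cations, had the largest R1881 response in size of the 8 genes tested. In LNCaP, it was 11.1, 11.7 and 9.93 CPM with vehicle, 26.5, 23.6 and 22.3 CPM with R1881, and 24.0, 24.1 and 23.0 CPM under dual knockdown. In C4-2 the values were 1.91, 2.12 and 2.61 CPM, then 7.36, 5.67 and 7.09 CPM, then 6.84, 7.45 and 8.28 CPM. The R1881 libraries lay above the vehicle libraries without overlap in both lines, while the dual knockdown libraries overlapped those with siScr and R1881. R1881 raised it by a log2FC of 1.13 in LNCaP (SE 0.10, adjusted p = 6.01e-08 in edgeR) and 1.67 in C4-2 (SE 0.20, adjusted p = 1.53e-05). The difference of 0.54 between these responses did not pass (SE 0.20, adjusted p = 0.0744 in edgeR), and passed when C4-2 R1881 replicate 2 was left out (0.64, adjusted p = 0.0314). Under dual knockdown the log2FC was −0.01 in LNCaP (SE 0.09, adjusted p = 0.961 in edgeR) and 0.16 in C4-2 (SE 0.17). CLDN8 was lower in C4-2 by 2.39 on the log2 scale with vehicle (SE 0.15, adjusted p = 2.06e-11 in edgeR) and by 1.85 with R1881 (SE 0.12, adjusted p = 1.72e-11). In C4-2 with vehicle the values rest on 83 counts in 3 libraries.

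CLDN3 and CLDN4, neighbours on chromosome 7 and both receptors for the Clostridium enterotoxin, and CLDN7 were the claudins among the 9 genes that stood higher in C4-2. CLDN3 was 8.55, 4.54 and 5.48 CPM in LNCaP with vehicle and 42.6, 34.7 and 33.6 CPM in C4-2 with vehicle. With R1881 it was 8.74, 7.53 and 7.63 CPM in LNCaP and 37.8, 37.6 and 37.0 CPM in C4-2. Every C4-2 library was above every LNCaP library, by a log2FC of 2.66 with vehicle (SE 0.23, adjusted p = 3.20e-09 in edgeR) and 2.23 with R1881 (SE 0.22, adjusted p = 1.67e-08). For CLDN4 the line difference was 0.91 with vehicle (SE 0.12, adjusted p = 7.01e-07 in edgeR) and 0.32 with R1881 (SE 0.11, adjusted p = 0.0201), and the latter missed the threshold when LNCaP R1881 replicate 2 (adjusted p = 0.0902) or C4-2 R1881 replicate 1 or 2 (0.0669 and 0.0513) was left out. For CLDN7 it was 0.63 with vehicle (SE 0.09, adjusted p = 6.07e-06 in edgeR) and 0.34 with R1881 (SE 0.09, adjusted p = 0.00330).

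R1881 raised CLDN4 and CLDN7 in LNCaP. CLDN4 went from 143, 117 and 147 CPM with vehicle to 208, 177 and 192 CPM, a log2FC of 0.49 (SE 0.09, adjusted p = 2.02e-04 in edgeR), and CLDN7 from 169, 153 and 174 CPM to 226, 222 and 230 CPM, a log2FC of 0.43 (SE 0.07, adjusted p = 7.12e-05). In C4-2, CLDN4 was 259, 259 and 247 CPM with vehicle and 252, 240 and 228 CPM with R1881, and CLDN7 274, 265 and 226 CPM and 293, 297 and 270 CPM. The C4-2 groups overlapped, and neither log2FC passed (−0.10, SE 0.11, adjusted p = 0.565 and 0.16, SE 0.10, adjusted p = 0.256 in edgeR). The difference between the responses of the lines passed for CLDN4 (−0.59, SE 0.16, adjusted p = 0.0158 in edgeR) and did not for CLDN7 (−0.29, SE 0.13, adjusted p = 0.157). For CLDN4 it missed the threshold without LNCaP vehicle replicate 2 (−0.49, adjusted p = 0.0523). CLDN3 did not pass in either line (log2FC 0.39, SE 0.18, adjusted p = 0.0909 in LNCaP and −0.00, SE 0.20, adjusted p = 0.993 in C4-2, edgeR). Without LNCaP vehicle replicate 1, its log2FC in LNCaP was 0.68 and passed (adjusted p = 0.00102).

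Under dual knockdown in LNCaP all 3 of these claudins rose. CLDN3 reached 13.3, 12.9 and 14.6 CPM, CLDN4 246, 256 and 224 CPM and CLDN7 291, 276 and 245 CPM. Each dual knockdown library lay above each siScr R1881 library. The log2FC was 0.79 for CLDN3 (SE 0.17, adjusted p = 0.00835 in edgeR), 0.35 for CLDN4 (SE 0.09, adjusted p = 0.0150) and 0.28 for CLDN7 (SE 0.07, adjusted p = 0.0153). The calls for CLDN4 and CLDN7 were each lost when any of 4 libraries was left out (LNCaP siScr R1881 replicates 2 and 3 and dual knockdown replicates 1 and 2), with adjusted p from 0.0564 to 0.0871 in edgeR and log2FC values from 0.21 to 0.35. Those for CLDN3 and CLDN7 were also lost on correction for GC content, whose values are given with the base composition. In C4-2 under dual knockdown, CLDN3 was 121, 59.5 and 65.5 CPM, CLDN4 373, 254 and 259 CPM and CLDN7 415, 322 and 319 CPM. Replicate 1 was the highest for all 3 genes. The log2FC in C4-2 was 1.12 for CLDN3 (SE 0.19), 0.29 for CLDN4 (SE 0.11) and 0.29 for CLDN7 (SE 0.10). Without replicate 1 these values were 0.74, 0.10 and 0.16, while that of CLDN12 was 1.31.

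CLDN1 was near the limit of detection. In LNCaP its 3 libraries held 3, 2 and 1 counts with vehicle, 5, 13 and 8 with R1881 and 7, 4 and 6 under dual knockdown. In C4-2 the groups held 2, 2 and 5 counts in all. It was removed by the filter on low counts from all 3 fits (LNCaP, C4-2 and both lines), so 8 of the 9 genes were tested. The summed counts in LNCaP were 4.50 times higher with R1881 than with vehicle after scaling by library size, with an exact 95% interval of 1.81 to 13.4 that covers counting error only. With R1881, the C4-2 sum was 0.0725 of the LNCaP sum (exact 95% interval 0.00834 to 0.290). In a fit without the filter, both comparisons passed (log2FC 2.12, adjusted p = 0.0266 and −3.60, adjusted p = 0.00152 in edgeR).

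Occludin, a membrane protein of the strands, fell under R1881 in both lines. In LNCaP, OCLN was 98.6, 108 and 97.5 CPM with vehicle, 85.1, 90.3 and 84.5 CPM with R1881 and 72.2, 70.0 and 66.7 CPM under dual knockdown. In C4-2 it was 57.9, 61.9 and 56.0 CPM with vehicle, 33.3, 36.1 and 34.7 CPM with R1881 and 32.3, 36.0 and 37.9 CPM under dual knockdown. The groups did not overlap for R1881 in either line or for dual knockdown in LNCaP. The log2FC for R1881 was −0.25 in LNCaP (SE 0.06, adjusted p = 0.00441 in edgeR) and −0.77 in C4-2 (SE 0.09, adjusted p = 1.92e-05), and the difference of −0.54 passed (SE 0.10, adjusted p = 7.37e-04). With counts thinned to the smallest library that difference was −0.34 and did not pass (adjusted p = 0.252). Dual knockdown gave −0.30 in LNCaP (SE 0.06, adjusted p = 0.00806 in edgeR) and 0.02 in C4-2 (SE 0.09). The LNCaP call was lost with thinned counts (−0.21, adjusted p = 0.232 in edgeR) and on correction for GC content. OCLN was lower in C4-2 by 0.78 on the log2 scale with vehicle (SE 0.07, adjusted p = 5.57e-09 in edgeR) and by 1.32 with R1881 (SE 0.07, adjusted p = 9.99e-13).

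TJP1 rose under R1881 in both lines. In LNCaP it was 354, 375 and 329 CPM with vehicle, 622, 630 and 620 CPM with R1881 and 472, 498 and 521 CPM under dual knockdown. In C4-2 it was 493, 567 and 556 CPM, then 763, 789 and 819 CPM, then 757, 890 and 868 CPM. The log2FC for R1881 was 0.81 in LNCaP (SE 0.06, adjusted p = 5.61e-09 in edgeR) and 0.55 in C4-2 (SE 0.09, adjusted p = 2.17e-04). Dual knockdown lowered it in LNCaP, by a log2FC of −0.31 (SE 0.06, adjusted p = 0.00446 in edgeR), and in C4-2 the log2FC was 0.08 (SE 0.09). The LNCaP call missed the threshold on correction for GC content. The level was above that of LNCaP in C4-2 with vehicle (0.61, SE 0.07, adjusted p = 2.14e-07 in edgeR) and with R1881 (0.34, SE 0.07, adjusted p = 2.87e-04).

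F11R, an adhesion molecule of the immunoglobulin family, differed between the lines and passed in no tested comparison within a line. It was 64.7, 61.9 and 62.3 CPM in LNCaP with vehicle, 53.4, 59.3 and 63.1 CPM with R1881 and 65.5, 66.3 and 65.7 CPM under dual knockdown. In C4-2 it was 45.6, 46.1 and 47.3 CPM, then 47.3, 39.2 and 44.0 CPM, then 59.3, 53.3 and 52.0 CPM. C4-2 was lower by 0.45 on the log2 scale with vehicle (SE 0.08, adjusted p = 5.46e-05 in edgeR) and by 0.43 with R1881 (SE 0.08, adjusted p = 5.62e-05). For R1881 the log2FC was −0.12 in LNCaP (SE 0.07, adjusted p = 0.162 in edgeR) and −0.09 in C4-2 (SE 0.09, adjusted p = 0.476), and the groups overlapped. Dual knockdown gave 0.19 in LNCaP (SE 0.07, adjusted p = 0.0761 in edgeR) and 0.33 in C4-2 (SE 0.09).

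**Figure D3:**
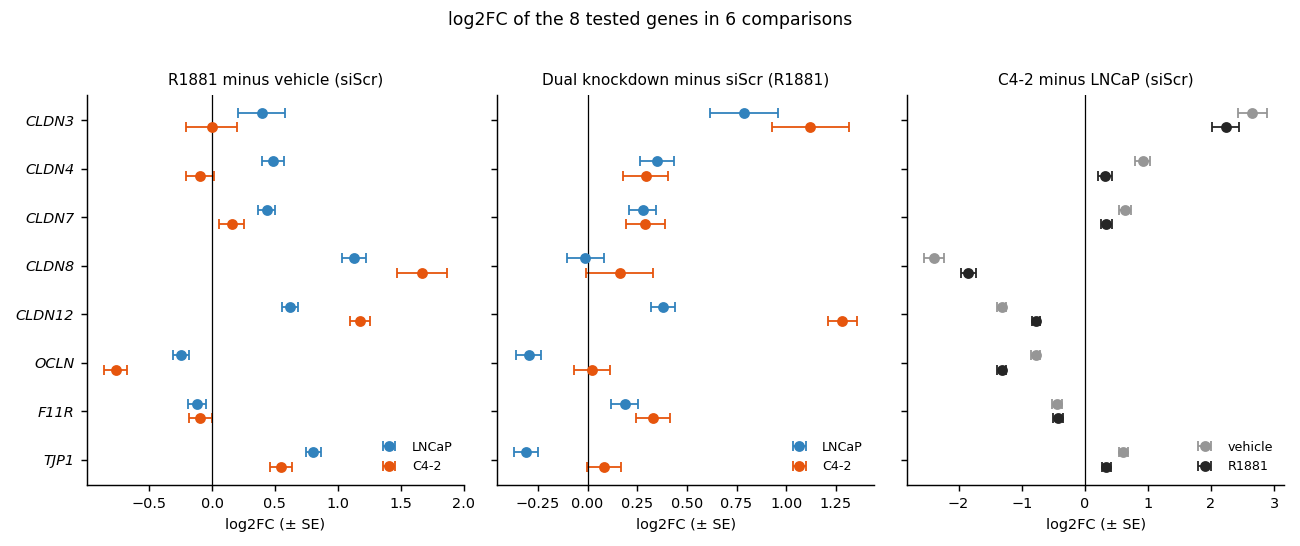
log2FC (± SE, edgeR) of the 8 tested genes for R1881 against vehicle (left), dual knockdown against siScr with R1881 (middle) and C4-2 against LNCaP (right), with a separate axis range in each panel. Under R1881, CLDN8 and CLDN12 lie furthest right in C4-2 (1.67 and 1.18) and CLDN8 and TJP1 in LNCaP (1.13 and 0.81). CLDN12 in C4-2 lies furthest right under dual knockdown, the comparison by which it was chosen. The lines differ most for CLDN3 and CLDN8.

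Set against all genes, the counts differed by comparison. A gene passed with an adjusted p under 0.05 in edgeR, and was differentially expressed when log2FC was also at least 1 in size. Under R1881 in LNCaP, 6 of the 8 tested genes passed against 46.6% of the 17162 genes tested, with 5 higher (23.5% of all) and 1 lower (23.2%), and their median log2FC was 0.46 against −0.04 over all genes. Under R1881 in C4-2, 4 of 8 passed against 32.8% of 16965 genes, with 3 higher (17.1% of all) and 1 lower (15.7%) and a median of 0.08 against −0.02. CLDN8 in both lines and CLDN12 in C4-2 were differentially expressed, as were 12.3% of all genes in LNCaP and 9.07% in C4-2. Under dual knockdown in LNCaP, 6 of 8 passed against 14.2% of genes, with 4 higher (8.27% of all) and 2 lower (5.89%) and a median of 0.23 against 0.00. None of them was differentially expressed, against 0.286% of all genes. In C4-2 under dual knockdown, 2 of 8 had a log2FC of at least 1 in size (5.6% of all genes) and the libraries of 5 of 8 did not overlap (40.5% of all genes). These counts come from the comparison used to choose the genes. Between the lines, 8 of 8 passed with vehicle against 58.9% of 18684 genes, 4 higher in C4-2 (29.4% of all) and 4 lower (29.5%). With R1881 8 of 8 passed against 58.3%, again 4 higher (28.6%) and 4 lower (29.7%). The difference between the R1881 responses passed for 3 of 8 genes (CLDN12, CLDN4 and OCLN) against 14.0% of genes.

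Base composition moved with some of these results. Across the genes tested, log2FC correlated with GC content at Spearman's rho = 0.535 for dual knockdown in LNCaP, −0.306 for R1881 in C4-2, −0.127 for R1881 in LNCaP and 0.0773 for dual knockdown in C4-2. The genes that rose under dual knockdown in LNCaP include the GC-rich CLDN3, CLDN4 and CLDN7, and the ones that fell, OCLN and TJP1, are GC-poor, whereas CLDN12 is GC-poor and rose. After the trend with GC content was removed from each library, 3 of 8 genes passed in that comparison (CLDN12, CLDN4 and F11R) against 6.65% of all genes. The log2FC of CLDN12 was then 0.52 (SE 0.05, adjusted p = 2.79e-05 in edgeR) and that of CLDN4 0.26 (SE 0.07, adjusted p = 0.0255). CLDN3 moved to 0.28 (SE 0.14, adjusted p = 0.269 in edgeR), CLDN7 to 0.10 (SE 0.06, adjusted p = 0.324), OCLN to −0.15 (SE 0.05, adjusted p = 0.103) and TJP1 to −0.18 (SE 0.05, adjusted p = 0.0542), and none of these passed. F11R moved to 0.23 and passed (SE 0.06, adjusted p = 0.0309 in edgeR). For R1881, the corrected log2FC of CLDN3 was 0.64 in LNCaP and 0.46 in C4-2, and both passed (SE 0.15 and 0.09, adjusted p = 0.00156 and 0.00146 in edgeR). CLDN7 also passed in C4-2 after the correction (0.30, SE 0.06, adjusted p = 0.00177 in edgeR). The R1881 results of CLDN8, CLDN12, OCLN and TJP1 passed in both lines with and without it. Removing the trend also removes any response of the cells that itself follows GC content, and the 2 cannot be told apart here.

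**Figure D4:**
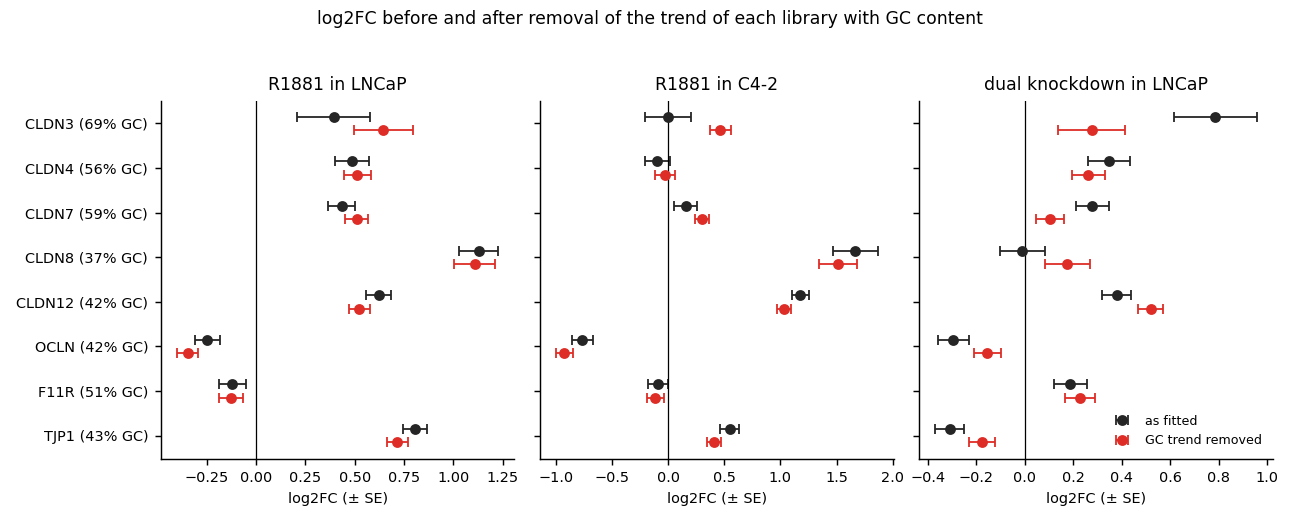
log2FC (± SE, edgeR) of the 8 tested genes as fitted (black) and after removal of each library's trend with GC content (red). Panels show R1881 in LNCaP, R1881 in C4-2 and dual knockdown in LNCaP, with the mean GC content of each gene's transcripts beside its name. Under dual knockdown in LNCaP, CLDN3 moves from 0.79 to 0.28 while CLDN12 moves from 0.38 to 0.52.

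Libraries of 1 group also varied together. For deviations from the group means over the 18 libraries, CLDN3, CLDN4 and CLDN7 went together (Pearson's r from 0.64 to 0.84), CLDN12 and TJP1 went together (r = 0.72), and each of the first 3 went against TJP1 (r from −0.83 to −0.60) and against CLDN12 (−0.59 to −0.41). Against OCLN r was −0.64 for CLDN3, −0.65 for CLDN4 and −0.30 for CLDN7. Without the 2 libraries farthest from the median for the first gene of each pair, CLDN3, CLDN4 and CLDN7 went together at r from 0.48 to 0.73. Against OCLN r was then −0.49, −0.40 and −0.19, against TJP1 −0.79 to −0.57 and against CLDN12 −0.55 to −0.51. For CLDN12 and TJP1 it was 0.76. These deviations share the GC trend of their library, whose correlation with GC content was strongest in C4-2 dual knockdown replicate 1 (rho = 0.548), so they are given as a description. Over all 18 libraries, the genes whose log2 CPM was most like that of CLDN12 among 14868 were BZW1 (r = 0.987), ARFIP1 (0.981), SLC26A2 (0.974), RNF41 (0.972) and OTUD6B (0.968). For CLDN8 they were MEAF6 (r = 0.987), KCNN2 (0.986), IFT57 (0.984), UBXN8 (0.984) and GCNT2 (0.983). The libraries share line and treatment, so these values of r describe the pattern over the groups only. For CLDN12 that pattern includes the comparison by which the gene was chosen.

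Other claudins were few. Of 18, 4 were tested within each line. CLDN15, known from gut epithelium, fell under R1881 in LNCaP from 12.6 ± 1.72 to 9.30 ± 1.25 CPM (log2FC −0.44, SE 0.14, adjusted p = 0.0176 in edgeR). It was higher in C4-2 with vehicle (0.64, SE 0.13, adjusted p = 2.25e-04 in edgeR) and with R1881 (1.07, SE 0.13, adjusted p = 3.11e-07). CLDN14, named after its values were seen, passed upwards under R1881 in both lines, on 0 counts in all with vehicle and 21 with R1881 in LNCaP, and on 5 and 46 in C4-2. None of the 4 passed under dual knockdown in either line.

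Among 9 other membrane proteins of junctions, 8 were tested within each line. Under R1881, 3 passed upwards and 1 downwards in LNCaP (46.6% of all genes passed) and 1 each way in C4-2 (32.8% of all genes), near or below the share of all genes. CXADR, an adhesion molecule of junctions that viruses use as a receptor, rose from 81.6 ± 7.94 to 151 ± 13.4 CPM in LNCaP (log2FC 0.86, SE 0.08, adjusted p = 8.68e-08 in edgeR) and from 53.3 ± 3.00 to 108 ± 7.47 CPM in C4-2 (1.00, SE 0.10, adjusted p = 4.19e-06). Under dual knockdown it fell to 100 ± 6.82 CPM in LNCaP (log2FC −0.57, SE 0.08, adjusted p = 0.00109 in edgeR) and to 61.1 ± 8.28 CPM in C4-2 (−0.82, SE 0.10, adjusted p = 6.32e-05). JAM3, a relative of F11R, rose under R1881 in LNCaP (0.93, SE 0.19, adjusted p = 7.22e-04 in edgeR), as did MARVELD3, a relative of occludin (0.49, SE 0.09, adjusted p = 1.76e-04). Neither JAM3 nor MARVELD3 passed in C4-2 (−0.41 and 0.19, adjusted p = 0.130 and 0.28 in edgeR). MARVELD2 (tricellulin) fell under R1881 in LNCaP (−0.19, SE 0.06, adjusted p = 0.0111 in edgeR) and in C4-2 (−0.31, SE 0.08, adjusted p = 0.00767). Under dual knockdown, 2 passed upwards and 1 downwards in LNCaP (14.2% of all genes) and 1 each way in C4-2 (23.5% of all genes). Those upwards in LNCaP were CRB3, a polarity protein (0.56, SE 0.14, adjusted p = 0.0140 in edgeR), and LSR, a protein of tricellular contacts (0.33, SE 0.10, adjusted p = 0.0372). In that comparison log2FC followed GC content over all genes (rho = 0.535). The LNCaP calls for CXADR, CRB3 and LSR under dual knockdown are given without correction for it.

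Of 23 plaque and polarity proteins, all were tested. Under R1881, 4 passed upwards and 7 downwards in LNCaP against 46.6% of all genes, and 2 and 8 in C4-2 against 32.8%. ARHGEF2, a guanine nucleotide exchange factor held at junctions, fell in LNCaP (−0.89, SE 0.13, adjusted p = 2.58e-05 in edgeR), MAGI1 fell there too (−0.58, SE 0.07, adjusted p = 2.22e-06), and CGNL1, which binds TJP1, rose (0.63, SE 0.07, adjusted p = 1.93e-06). ARHGEF2 and MAGI1 also fell in C4-2 (−0.31 and −0.29, adjusted p = 0.0158 and 0.0425 in edgeR), where CGNL1 did not pass (0.27, adjusted p = 0.131). In C4-2, MAGI3 fell (−0.61, SE 0.11, adjusted p = 8.92e-04 in edgeR), AMOTL2 fell (−0.62, SE 0.20, adjusted p = 0.0289) and AMOTL1 rose (0.85, SE 0.24, adjusted p = 0.0154). In LNCaP, MAGI3 and AMOTL1 fell (−0.33 and −0.32, adjusted p = 0.00476 and 0.0395 in edgeR) and AMOTL2 did not pass (−0.22, adjusted p = 0.403). Under dual knockdown, 1 passed each way in LNCaP against 14.2% of all genes, and 3 upwards and 2 downwards in C4-2 against 23.5%. TJP3, a relative of TJP1, rose in LNCaP (0.43, SE 0.11, adjusted p = 0.0172 in edgeR, without correction for GC content). In C4-2, CGN (cingulin), a plaque protein that binds TJP1, rose from 37.8 ± 3.12 to 76.0 ± 3.88 CPM (1.00, SE 0.10, adjusted p = 1.03e-05 in edgeR), and AMOTL1 rose from 3.43 ± 0.09 to 8.15 ± 1.46 CPM (1.24, SE 0.21, adjusted p = 7.38e-04).

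Of 6 transcription factors known to act on junction genes, SNAI2 (Slug), a repressor of epithelial genes, had the largest change. With vehicle it had 2, 13 and 12 counts in LNCaP and 4, 2 and 0 in C4-2, and with R1881 it reached 12.3 ± 1.86 CPM in LNCaP and 18.2 ± 1.74 CPM in C4-2 (log2FC 4.52 and 6.87, SE 0.23 and 0.26, adjusted p = 3.79e-11 and 5.43e-11 in edgeR). Under dual knockdown it was 11.4 ± 0.36 CPM in LNCaP (log2FC −0.09, SE 0.15, adjusted p = 0.762 in edgeR) and fell to 7.81 ± 0.51 CPM in C4-2 (−1.23, SE 0.14, adjusted p = 3.00e-05). GRHL2, an activator of claudin genes, rose under R1881 in LNCaP (0.84, SE 0.06, adjusted p = 1.75e-09 in edgeR) and in C4-2 (0.67, SE 0.08, adjusted p = 1.60e-05), and fell under dual knockdown in C4-2 (−0.53, SE 0.08, adjusted p = 2.88e-04). ELF3, an epithelial ETS factor, fell under R1881 from 32.7 ± 1.84 to 25.9 ± 0.62 CPM in LNCaP (−0.35, SE 0.08, adjusted p = 0.00249 in edgeR) and from 41.0 ± 6.24 to 13.7 ± 1.63 CPM in C4-2 (−1.61, SE 0.14, adjusted p = 5.71e-07). SNAI1 fell in C4-2 (−1.03, SE 0.29, adjusted p = 0.0127 in edgeR) at a mean of 2.73 CPM with vehicle. The 1 factor that passed under dual knockdown in LNCaP was ZEB1, downwards, on 42 counts with siScr and 12 under dual knockdown, and it is named after its values were seen. Its call is given without correction for GC content. Whether any of these factors acts on the 9 genes was not tested.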

How the data were processed

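RNA Seq was measured in 18 libraries of LNCaP and C4-2 cells. The authors made the deposited counts by poly(A) capture, paired sequencing, trimming with TrimGalore, alignment to GRCh38 with STAR and assignment to Ensembl genes (release 83 per the file headers) with FeatureCounts 1.5.0-p1, without strand or normalisation. Gene symbols came from GENCODE 29. GC content is the mean over the transcripts of a gene in GENCODE 29.

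Each line's 9 libraries entered 1 fit in R 4.3.3 with edgeR 4.0.16 (TMM, filterByExpr with a minimum count of 10 and a total of 15, 2-sided quasi-likelihood F-test, Benjamini-Hochberg over all genes tested), and all 18 together for comparisons of the lines. Each SE is the log2FC divided by the square root of F. Other steps ran in Python 3.11.15 (scipy 1.17.1, numpy 2.4.6, pandas 2.3.3), with figures by matplotlib 3.10.9. Fits were tested on simulated data drawn without a GC trend, so that test does not cover the effect of GC content on the calls. Replicates of a group differed by more than counting error (chi-square per gene 1.94 to 10.8).

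The members and the lists of genes were chosen with earlier results of these data known. Besides the members, the text names up to 3 genes per list and comparison with the largest log2FC among those that passed at a mean of at least 1 CPM, and the 5 genes most like CLDN12 and CLDN8 by Pearson's r. Alternatives were RLE factors, DESeq2 1.42.0, a likelihood ratio test, the filter left off or set to 10 counts in each library, only the groups compared, the replicate number as a block, thinned counts, GC correction and each library left out. Correlations of same-numbered libraries' deviations lay between −0.0735 and 0.0744 over 18 pairs. The paper's methods name DMSO as vehicle in the RNA Seq section and ethanol for R1881 in the culture section. Protein sequences were not used here, and some genes of the lists are not reported here.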

Additional observations from a re-analysis of the deposited data

Results flagged for a closer look

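The results here are among those in which the response of C4-2 differed from that of LNCaP in a test of the interaction (edgeR, 18 libraries, adjusted p under 0.05). All values are log2FC in C4-2 minus log2FC in LNCaP. For R1881 these were CLDN12 (0.54), CLDN4 (−0.59) and OCLN (−0.54). CLDN12 rose in both lines and more in C4-2, OCLN fell in both and more in C4-2, and CLDN4 passed in LNCaP only. Among the other junction genes named, the R1881 responses differed for SNAI2 (2.33), AMOTL1 (1.14), ARHGEF2 (0.57), ELF3 (−1.28) and JAM3 (−1.35). The SNAI2 value rests on 27 and 6 counts with vehicle in LNCaP and C4-2.

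For dual knockdown, the genes whose responses differed included ILDR2 (2.24), AMOTL1 (1.21), CGN (0.81), GRHL2 (−0.34) and SNAI2 (−1.12). In all, 1 of 9 other membrane proteins passed, upwards. Of 23 plaque and polarity proteins 5 passed upwards and 1 downwards, and of 6 transcription factors 1 upwards and 2 downwards. Over all 18684 genes tested, 10.9% passed. The ILDR2 value rests on low levels, 0.57 CPM with siScr and R1881 and 2.24 CPM under dual knockdown in C4-2. In LNCaP they were 0.81 and 0.67 CPM. KDM1A and KDM7A themselves were lowered further in C4-2, to 16.4 and 21.2 CPM against 51.5 and 30.8 CPM in LNCaP, and the part of that in these differences was not tested. For the 9 junction genes, this difference holds the comparison by which they were chosen, and its values (0.93 for CLDN12, 0.41 for TJP1, 0.36 for CLDN3 and 0.34 for OCLN among them) are given with no test. Without C4-2 dual knockdown replicate 1 the value of CLDN3 was −0.02 and that of CLDN12 0.96.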

How the results depend on the processing

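For the 8 tested genes in both comparisons of the lines, every alternative other than leaving out a library kept direction and call. For R1881, CLDN3 turned from −0.00 to 0.46 in C4-2 on GC correction and to 0.47 with the replicate block and GC correction, and passed. The cause was not tested. Under dual knockdown in LNCaP, 3 genes passed on GC correction and 2 with the replicate block and GC correction, in place of 6, and over all genes 1141 and 821 passed in place of 2431. In C4-2 the number with a log2FC of at least 1 fell from 2 to 1 under GC correction and under the replicate block with GC correction, and ranged from 1 to 2 with each library left out. Without the filter, CLDN1 also had a log2FC of at least 1 for dual knockdown in C4-2 (1.16). That value rests on 2 counts with siScr and R1881 and 5 under dual knockdown. CLDN1 was then also the 1 gene, in place of 0, with a difference between the dual knockdown responses of at least 1. Deviations of same-numbered libraries showed little correlation, which does not exclude pairing by replicate number. The replicate block alone left 6 genes for R1881 in LNCaP and 4 in C4-2, 6 for dual knockdown in LNCaP, and 4 in place of 3 for the difference between the R1881 responses (TJP1, −0.27, adjusted p = 0.0410 in edgeR). CPM by total counts moved 16 of 54 group means beyond their SD. Depth limits CLDN1 and the C4-2 vehicle values, where 1 library holds 3182604 counts.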
